A study of Mus musculus with 10 samples.

Results

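The genes described here are 10 neighbours in 5 pairs, Capn8 and Susd4, Prtn3 and Med16, Trim7 and Gm16170, Gm12247 and Cnot8, and Gstt2 and Mif. They were selected on the contrast reported below, because both genes of each pair changed in the same direction between Thrb hep-/- and WT livers. They are 10 of the 55401 genes in the count files and of the 12234 genes that reached 1 CPM (counts scaled to the library total) in 5 or more libraries, and all 10 passed that filter. Each pair is adjacent along its chromosome when untested genes are skipped.

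Liver RNA of 5 WT and 5 Thrb hep-/- mice was sequenced as stranded mRNA libraries, 1 per mouse. Thrb encodes thyroid hormone receptor beta, and in Thrb hep-/- mice a Thrb-loxP allele is recombined by Afp-Cre, which is driven by the promoter of the fetal liver gene for alpha-fetoprotein. All mice were on a 12-h light and dark cycle and standard chow. The strain is given as C57Bl6/J in the titles and as C56Bl6/J in the strain field, and whether WT mice carried loxP or Cre is not given in the sources used here. The study's methods describe purchased WT mice as young adult males, without saying whether this holds for the mice here, and litter and time of collection are not given for them. Thyroid hormone receptors bind the hexamer AGGTCA as pairs with the retinoid X receptor and turn gene expression up or down with the hormone. In the liver they are best known for control of lipid and cholesterol metabolism.

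Total counts were between 26477195 and 28590704 per library, and Xist had 0 to 5 and the Y-linked Ddx3y 1144 to 1547 counts in all 10 libraries. Thrb, the targeted gene, had a mean normalized CPM of 33.3 ± 0.643 in the 5 WT and 26.7 ± 1.93 in the 5 Thrb hep-/- livers (SD). The log2 fold change was -0.32, with a standard error of 0.067 and an adjusted p of 0.036 (Benjamini-Hochberg, by the quasi-likelihood test of edgeR). A count per gene sums all exons and does not show which of them were deleted. Summed CPM of 8 hepatocyte markers were 92822 to 128859 in WT and 106232 to 119700 in Thrb hep-/- libraries, and 0 of the 8 passed an adjusted p of 0.15 with edgeR, while 2 had an unadjusted p below 0.05 and 2 were called by DESeq2 and by limma-voom. Each of 16 acute-phase genes, plasma proteins whose synthesis rises in inflammation and which were listed after earlier results of these data were known, had a lower fitted level in Thrb hep-/- livers, with 13 called and a median log2 fold change of -1.18. Averaged over these genes, log2 CPM were 11.1 ± 0.665 in the 5 WT and 9.39 ± 0.464 in the 5 Thrb hep-/- livers (SD). In bulk tissue, fewer cells of a type and less RNA per cell cannot be told apart.

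Sequence upstream of 4 members is shown. Prtn3 and Med16 were taken because both partners have such sequence free of annotated exons. Capn8 was taken because only Prtn3 changed more, and Cnot8 because its sequence holds the receptor's hexamer. RefSeq on GRCm38.p6 gave 12 windows of 250 bases upstream of start sites for 7 of the 10 members, with no entry for Gm16170, Gm12247 and Gstt2. Windows of Susd4 and Trim7 overlap annotated exons and are not shown. That of Mif, which holds no exon base, is also left out. The windows are chr1:182564757-182565006 on the plus strand for Capn8 and chr10:79879417-79879613 on the plus strand for Prtn3 (197 bases, up to an annotated exon). For Med16 the window is chr10:79908939-79909188 on the minus strand, and for the outermost start of Cnot8 chr11:58092544-58092793 on the plus strand. The RefSeq start of Prtn3 lies 5191 bases after the start of the gene as given below, so its window is inside that gene. Capitals mark the hexamer AGGTCA on the complementary strand, written TGACCT.
Capn8: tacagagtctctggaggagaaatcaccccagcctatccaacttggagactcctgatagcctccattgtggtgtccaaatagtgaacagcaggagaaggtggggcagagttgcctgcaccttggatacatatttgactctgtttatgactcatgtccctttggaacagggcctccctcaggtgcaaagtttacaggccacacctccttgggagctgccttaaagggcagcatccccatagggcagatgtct
Prtn3: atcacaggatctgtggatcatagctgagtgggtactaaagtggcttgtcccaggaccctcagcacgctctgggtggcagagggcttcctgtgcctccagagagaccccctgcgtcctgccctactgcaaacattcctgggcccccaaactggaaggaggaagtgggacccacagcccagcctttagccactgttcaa
Med16: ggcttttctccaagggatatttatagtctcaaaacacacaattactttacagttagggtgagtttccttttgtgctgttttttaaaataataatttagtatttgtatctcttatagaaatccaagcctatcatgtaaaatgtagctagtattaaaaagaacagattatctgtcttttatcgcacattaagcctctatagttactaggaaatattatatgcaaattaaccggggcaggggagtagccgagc
Cnot8: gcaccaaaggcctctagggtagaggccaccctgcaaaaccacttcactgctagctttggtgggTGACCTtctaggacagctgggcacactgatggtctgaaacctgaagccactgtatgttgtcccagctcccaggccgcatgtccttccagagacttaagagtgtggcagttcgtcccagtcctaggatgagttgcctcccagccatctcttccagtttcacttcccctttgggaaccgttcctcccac
The hexamer was in 1 of the 12 member windows, that of Cnot8, and in 14.02% of all 32851 windows of the same length. A direct repeat, 2 copies of AGGTCA in the same orientation 4 bases apart on either strand, was in 0 of the 12 and in 0.0152% of all windows. The palindrome TTCNNNGAA, which the acute-phase factor STAT3 binds, was in 0 of the 12 and in 7.02% of all. Partners differed in base composition. The window of Capn8 had no CG dinucleotide, against 41 and 10 in those of Susd4. The latter hold 250 and 90 annotated exon bases and that of Capn8 none, so unlike kinds of sequence are compared. Over the full windows, Med16 had 33.2% G and C and Prtn3 60.4%, against a median of 52.4% over all windows.

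Of the 10 members, 8 were lower and 2 higher in Thrb hep-/- livers, with a median log2 fold change of -0.91 over the 10 and 0.00054 over all genes tested. All 10 were past the study's threshold, an adjusted p of 0.15 over all genes, where 4.08% of tested genes were (2.57% lower and 1.51% higher), but as they were selected for this, nothing is read from the count. The genotypes did not overlap for 6 members, nor for 3.64% of all genes tested. With the acute-phase mean as a covariate, an alternative added after seeing the data, 8 genes were past the threshold and 0 of the members were. In that fit Trim7, Gm16170, Cnot8 and Gstt2 moved by less than the spread between mice, to log2 fold changes of -0.71, -0.68, -0.20 and 0.67, while Susd4 moved most relative to its size, to -0.0090. The covariate had a correlation of -0.85 with genotype, so the fit also removes genotype difference. How far each member follows the acute phase is not read from it. Log2 fold changes below are from edgeR and are given for members as a description, without a test.

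**Figure D1:**
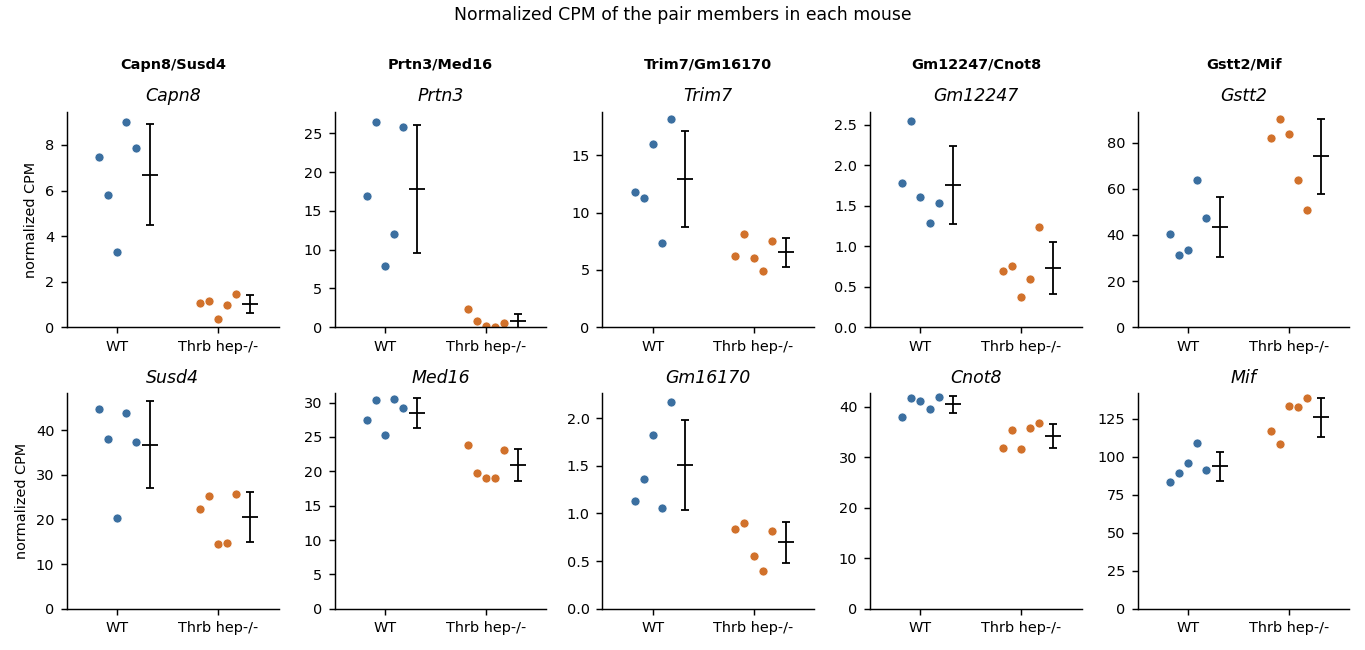
Normalized CPM (vertical axis, from 0) of the 10 members in each of 5 WT (blue) and 5 Thrb hep-/- (orange) mice, with the mean and SD in black. Genotypes do not overlap for Capn8, Prtn3, Med16, Gm16170, Gm12247 and Cnot8, and overlap for Susd4, Trim7, Gstt2 and Mif.

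Capn8 encodes a calcium-dependent cysteine protease known from the mucus cells of the stomach, and Susd4 a membrane protein with sushi domains that restrains complement. Capn8 (ENSMUSG00000038599, GRCm38 chr1:182565007-182632352, plus strand) was at 7.45, 5.80, 3.29, 9.03 and 7.86 normalized CPM in WT mice 1 to 5 and at 1.08, 1.12, 0.377, 0.960 and 1.45 in Thrb hep-/- mice 1 to 5. The lowest WT mouse, replicate 3, was still above each Thrb hep-/- mouse, and the lowest of all, Thrb hep-/- replicate 3, rested on 11 reads. The log2 fold change was -2.74 (standard error 0.33), so WT livers had 6.68-fold more. Susd4 (ENSMUSG00000038576, chr1:182763860-182896591, plus strand) was at 44.6, 38.0, 20.2, 43.8 and 37.2 normalized CPM in WT and at 22.3, 25.3, 14.4, 14.7 and 25.7 in Thrb hep-/- mice. Here WT replicate 3 fell among the Thrb hep-/- mice and the other 4 WT mice lay above them. The log2 fold change was -0.84 (standard error 0.24). Per kilobase of exon, Susd4 was more abundant than Capn8 in both genotypes, at 9.53 and 1.77 RPKM in WT and 5.31 and 0.265 in Thrb hep-/- livers. The partners are transcribed in the same direction, 131.5 kb apart, with 3 annotated genes between them that had at most 1 count in any library. None of the 8 tested genes of the calpain family other than Capn8 was called by edgeR, DESeq2 or limma-voom, and 0 had an unadjusted p below 0.05. The same held for the 3 tested sushi domain genes other than Susd4.

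Prtn3 encodes proteinase 3, a serine protease stored in neutrophil granules, and Med16 a tail subunit of Mediator, the complex that links transcription factors to RNA polymerase II. Prtn3 (ENSMUSG00000057729, chr10:79874476-79883174, plus strand) was at 16.9, 26.5, 7.94, 12.0 and 25.9 normalized CPM in WT and at 2.33, 0.825, 0.206, 0.0662 and 0.530 in Thrb hep-/- mice. No mice overlapped, and Thrb hep-/- replicate 4 rested on 2 reads, under a floor of 3 counts. The log2 fold change was -4.50 (standard error 0.66), the largest of the 10 members, and the SD of log2 CPM was also the largest among them in Thrb hep-/- mice (1.58). Of its 1732 exon bases, 159 are shared with Plppr3, whose own log2 fold change was -0.26 (adjusted p = 0.74 with edgeR). Med16 (ENSMUSG00000013833, chr10:79894708-79908923, minus strand) was at 27.4, 30.3, 25.3, 30.5 and 29.2 normalized CPM in WT and at 23.8, 19.7, 19.0, 19.1 and 23.1 in Thrb hep-/- mice, again without overlap. The log2 fold change was -0.44 (standard error 0.089), with 1.36-fold more in WT. The change of Prtn3 thus exceeded that of its partner by 4.05 on the log2 scale. Among 32 other Mediator genes, all tested, 22 had lower and 10 higher fitted levels, with a median of -0.066. None of them was called by edgeR, DESeq2 or limma-voom, and 0 had an unadjusted p below 0.05.

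The partners converge on each other 11.5 kb apart, and Elane, Gm19810 and Cfd lie between them without passing the filter. Elane, which encodes neutrophil elastase and is expressed in the same granulocyte precursors as Prtn3, had 1, 57, 18, 3 and 14 counts in WT and 5, 1, 1, 3 and 1 in Thrb hep-/- mice. Mpo, myeloperoxidase of the same granules, had 4, 79, 35, 1 and 12 counts in WT and 0, 2, 0, 0 and 0 in Thrb hep-/- mice. Without the filter, fitted levels of both were lower in Thrb hep-/- mice, but edgeR called neither (adjusted p = 0.34 for Elane and 0.19 for Mpo). Their genotypes overlapped. Mmp9, another neutrophil granule gene, had 8 to 27 counts in WT and 8 to 23 in Thrb hep-/- mice. Prtn3 had 447, 757, 222, 307 and 692 counts in the same WT mice, so that WT replicates 1 and 4 held at most 4 reads of Elane or Mpo. The summed level of 12 neutrophil granule genes was 72.9 to 595.8 CPM in WT and 7.70 to 30.7 in Thrb hep-/- livers. Most of this sum was Lcn2, which alone was at 53.3 to 564.1 normalized CPM in WT and 6.32 to 30.2 in Thrb hep-/- livers. Of these 12 genes 2 passed the filter, and both fell, with log2 fold changes of -2.67 for S100a8 (adjusted p = 0.13) and -4.18 for Lcn2 (adjusted p = 0.048, both with edgeR). Both are also induced in hepatocytes or other cells in inflammation. Each of the 12 had counts in some library. The part of neutrophils in the level of Prtn3 was not tested.

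Cfd, the adipocyte protease adipsin, stood against its neighbours, with 1, 3, 1, 1 and 0 counts in WT and 498, 15, 3, 1149 and 638 in Thrb hep-/- mice. Without the filter, edgeR called Cfd with an adjusted p of 0.12 and a log2 fold change of 8.33, whose standard error was 1.93. Adipoq, Plin1 and Retn, 3 adipocyte genes chosen after the counts of Cfd had been seen, had 97, 144 and 72 counts in Thrb hep-/- replicate 1, 215, 182 and 192 in replicate 4 and 146, 197 and 118 in replicate 5, and at most 1 in the other 7 libraries. The same 3 mice held nearly all reads of Cfd. The part of adipose tissue in Cfd was not tested. Among Thrb hep-/- mice, replicate 1 had the highest level of both Prtn3 and Med16, and replicate 4 the lowest of Prtn3.

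**Figure D2:**
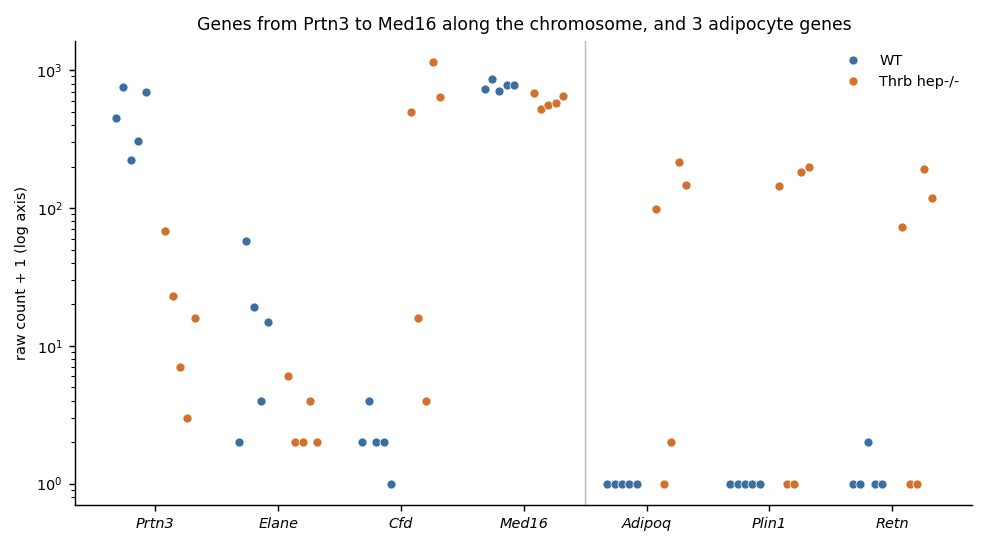
Raw counts plus 1 on a log axis for Prtn3, Elane, Cfd and Med16 in their order along the chromosome and, right of the line, for 3 adipocyte genes, in WT (blue) and Thrb hep-/- (orange) mice. Cfd is high in the same 3 Thrb hep-/- mice as Adipoq, Plin1 and Retn, while Prtn3 is below every WT mouse in all 5.

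Trim7 encodes a ubiquitin ligase that binds glycogenin, the protein that primes glycogen, and Gm16170 is annotated as a noncoding antisense RNA to it. Trim7 (ENSMUSG00000040350, chr11:48826140-48852209, plus strand) was at 11.8, 11.3, 15.98, 7.38 and 18.2 normalized CPM in WT and at 6.18, 8.14, 6.04, 4.93 and 7.50 in Thrb hep-/- mice. WT replicate 4 was below 2 of the Thrb hep-/- mice. Gm16170 (ENSMUSG00000086245, chr11:48843648-48853493, minus strand) was at 1.14, 1.36, 1.82, 1.05 and 2.17 normalized CPM in WT and at 0.834, 0.8999, 0.549, 0.397 and 0.813 in Thrb hep-/- mice, on 12 to 58 reads and without overlap. The log2 fold changes were -0.98 (standard error 0.22) for Trim7 and -1.11 (standard error 0.28) for Gm16170, the most alike of the 5 pairs, and the ratio of Trim7 to Gm16170 was at most 10.4 in WT and at most 12.4 in Thrb hep-/- mice. The genes overlap over 8562 bases, and 491 of the 3754 exon bases of Gm16170 are also exon of Trim7. Counting did not use the strand, so within the overlap a read of 1 gene that fell on an unshared exon of the other was counted for the other. Reads in the shared exons were not counted. The part of Trim7 before the start of Gm16170 lies outside the overlap. Gm12184, which shares exon bases with Trim7, was at -0.085 and the nearest tested genes, Trim41 and the interferon-induced GTPase gene Irgm1, at -0.082 and -0.25 on the log2 scale (adjusted p = 0.89, 0.78 and 0.22 with edgeR). Of the 4 other TRIM genes listed, 2 were tested, Trim41 beside Trim7 and Trim11, which lies 859.5 kb from Gm12247 and Cnot8. They were at -0.082 and -0.26, with a median of -0.17. Neither was called by edgeR, DESeq2 or limma-voom, and 0 had an unadjusted p below 0.05.

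Gm12247 is a processed pseudogene, a copy of an mRNA inserted into the genome, and Cnot8 encodes a deadenylase of the CCR4-NOT complex, which shortens the poly(A) tails of mRNAs. Gm12247 (ENSMUSG00000081223, chr11:58097104-58097773, minus strand) was at 1.78, 2.55, 1.61, 1.29 and 1.53 normalized CPM in WT and at 0.695, 0.7499, 0.377, 0.596 and 1.24 in Thrb hep-/- mice, on 11 to 73 reads. The genotypes did not overlap, though WT replicate 4 and Thrb hep-/- replicate 5 nearly met, and the log2 fold change was -1.26 (standard error 0.29). Cnot8 (ENSMUSG00000020515, chr11:58104153-58118594, plus strand) was at 38.0, 41.6, 41.2, 39.6 and 41.8 normalized CPM in WT and at 31.7, 35.3, 31.6, 35.8 and 36.8 in Thrb hep-/- mice, also without overlap. Its log2 fold change of -0.24 (standard error 0.068) was the smallest of the members and held with the smallest spread, an SD of log2 CPM of 0.059 in WT mice. The pair is divergent and 6.38 kb apart. In RefSeq, Cnot8 spans chr11:58092794-58118597, so that Gm12247 lies within it, and the hexamer shown above stands upstream of that outer start. As counting did not use the strand, reads of Cnot8 may have been counted for Gm12247, which was not tested. Gm12247 matched transcripts of A430005L14Rik at 95.5% identity over 687 aligned bases, and as reads with several matches were not counted, its level is uncertain. For A430005L14Rik edgeR gave 0.051 on the log2 scale, with a standard error of 0.093 and an adjusted p of 0.88. Among 11 other CCR4-NOT genes, all tested, 9 had lower and 2 higher fitted levels, with a median of -0.036. None was called by edgeR, DESeq2 or limma-voom, and 1 had an unadjusted p below 0.05.

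Gstt2 encodes a theta class glutathione transferase, which conjugates glutathione to reactive compounds, and Mif the cytokine macrophage migration inhibitory factor, which is also a tautomerase. Gstt2 (ENSMUSG00000033318, chr10:75831114-75837424, minus strand) was at 40.6, 31.4, 33.5, 63.7 and 47.5 normalized CPM in WT and at 82.0, 90.4, 83.7, 64.1 and 50.9 in Thrb hep-/- mice. WT replicate 4 stood above Thrb hep-/- replicate 5 and just under replicate 4 of that genotype. Mif (ENSMUSG00000033307, chr10:75859353-75860240, minus strand) was at 83.2, 89.2, 95.9, 108.9 and 91.5 normalized CPM in WT and at 116.6, 108.1, 133.6, 132.3 and 138.6 in Thrb hep-/- mice, with WT replicate 4 just above Thrb hep-/- replicate 2. The log2 fold changes were 0.78 (standard error 0.21) and 0.42 (standard error 0.093). Per kilobase of exon, Mif had the highest level of the members, 125.8 RPKM in WT and 168.9 in Thrb hep-/- livers. The partners lie on the same strand, 21.9 kb apart, with no annotated gene between them.

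Around Gstt2 and Mif further genes were called. Gstt1, another theta class transferase 32.5 kb from the pair, had a mean of 179.7 ± 36.8 normalized CPM in the 5 WT and 268.6 ± 33.4 in the 5 Thrb hep-/- mice (SD). It rose by 0.58 on the log2 scale, with a standard error of 0.14 and an adjusted p of 0.070 by edgeR. Ddt, the paralog of Mif, had means of 17.6 ± 2.87 and 25.04 ± 5.12 normalized CPM (SD, 5 mice each), and rose by 0.50 on the log2 scale, with a standard error of 0.14 and an adjusted p of 0.11 by edgeR. Gstt1, Gstt2 and Mif, with no other tested gene among them, were 1 of 8 runs of 3 or more neighbouring genes called in the same direction. Gstt3, between Ddt and Gstt1, was at 0.54 with a wide error of 0.33 (adjusted p = 0.52 with edgeR). On the other side, Derl3 was at 0.12 (standard error 0.52, adjusted p = 0.95 with edgeR). Snrpd3, 293.7 kb away and encoding a core protein of spliceosomal particles, rose by 0.25 on the log2 scale (standard error 0.060, adjusted p = 0.070 with edgeR). All of these calls were lost without Thrb hep-/- replicate 3, with adjusted p of 0.17 for Gstt1, 0.19 for Ddt and 0.16 for Snrpd3 by edgeR. Ddt also lost its call without WT replicate 1, 2 or 3 (adjusted p = 0.18, 0.24 and 0.19 with edgeR), and Snrpd3 without WT replicate 2 (0.17). Of 4 tested genes for the Mif paralog, its receptor and partners, 1 rose, Ddt, and 0 fell, and Cd74, its receptor, was at 0.53 (standard error 0.25, adjusted p = 0.40 with edgeR).

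Whether other genes near a pair changed with it was looked at next. Within 1 Mb of the 5 pairs, 135 other genes were tested and 5 (3.70%) were called, 1 lower and 4 higher, against 4.08% of all genes. Their median log2 fold change was -0.031. The 3 near Gstt2 and Mif were of 27 tested there (11.1%). Near Capn8 and Susd4 1 of 14 was called, Hhipl2, 521.6 kb away, which fell by 0.79 on the log2 scale (standard error 0.20, adjusted p = 0.075 with edgeR). Of the nearest tested genes on either side, the calpain gene Capn2 was at -0.016 and the flagellin receptor gene Tlr5 at -0.096 (adjusted p = 0.97 and 0.89 with edgeR). Near Prtn3 and Med16 1 of 58 was called, the complex I subunit gene Ndufs7, which rose by 0.28 on the log2 scale (standard error 0.085, adjusted p = 0.149 with edgeR, just under the threshold). There the nearest genes were Ptbp1 at -0.081 and R3hdm4, 1.13 kb from Med16, at -0.20 (adjusted p = 0.88 and 0.29 with edgeR), and limma-voom called R3hdm4. With 1 mouse left out, Hhipl2 lost its call without Thrb hep-/- replicate 3 (adjusted p = 0.18 with edgeR), and Ndufs7 kept its call in 4 of the 10 fits.

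On chromosome 11, 0 of 15 genes near Trim7 and Gm16170 were called by edgeR, with 2 at an unadjusted p below 0.05, 0 called by DESeq2 and 1 by limma-voom, the adjacent Irgm1. Likewise 0 of 21 near Gm12247 and Cnot8 were called, with 1 at an unadjusted p below 0.05 and 1 called by each of the other tools. Their nearest tested genes were Larp1 at -0.068 and Gemin5, 1.41 kb from the end of Cnot8, at -0.12 (adjusted p = 0.81 and 0.73 with edgeR). The small fitted differences leaned to the lower side at both, in 12 of 15 and 16 of 21 genes, and medians were -0.048 and -0.068. Within 250 kb, fitted levels were lower for 8 of 8 tested genes beside Trim7 and Gm16170, 5 of 5 beside Capn8 and Susd4, 7 of 9 beside Gm12247 and Cnot8, 11 of 22 beside Prtn3 and Med16 and 3 of 10 beside Gstt2 and Mif, against 6104 of all 12234. The count over all 5 pairs was 2 of 54 within 250 kb and 14 of 391 (3.58%) within 5 Mb.

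**Figure D3:**
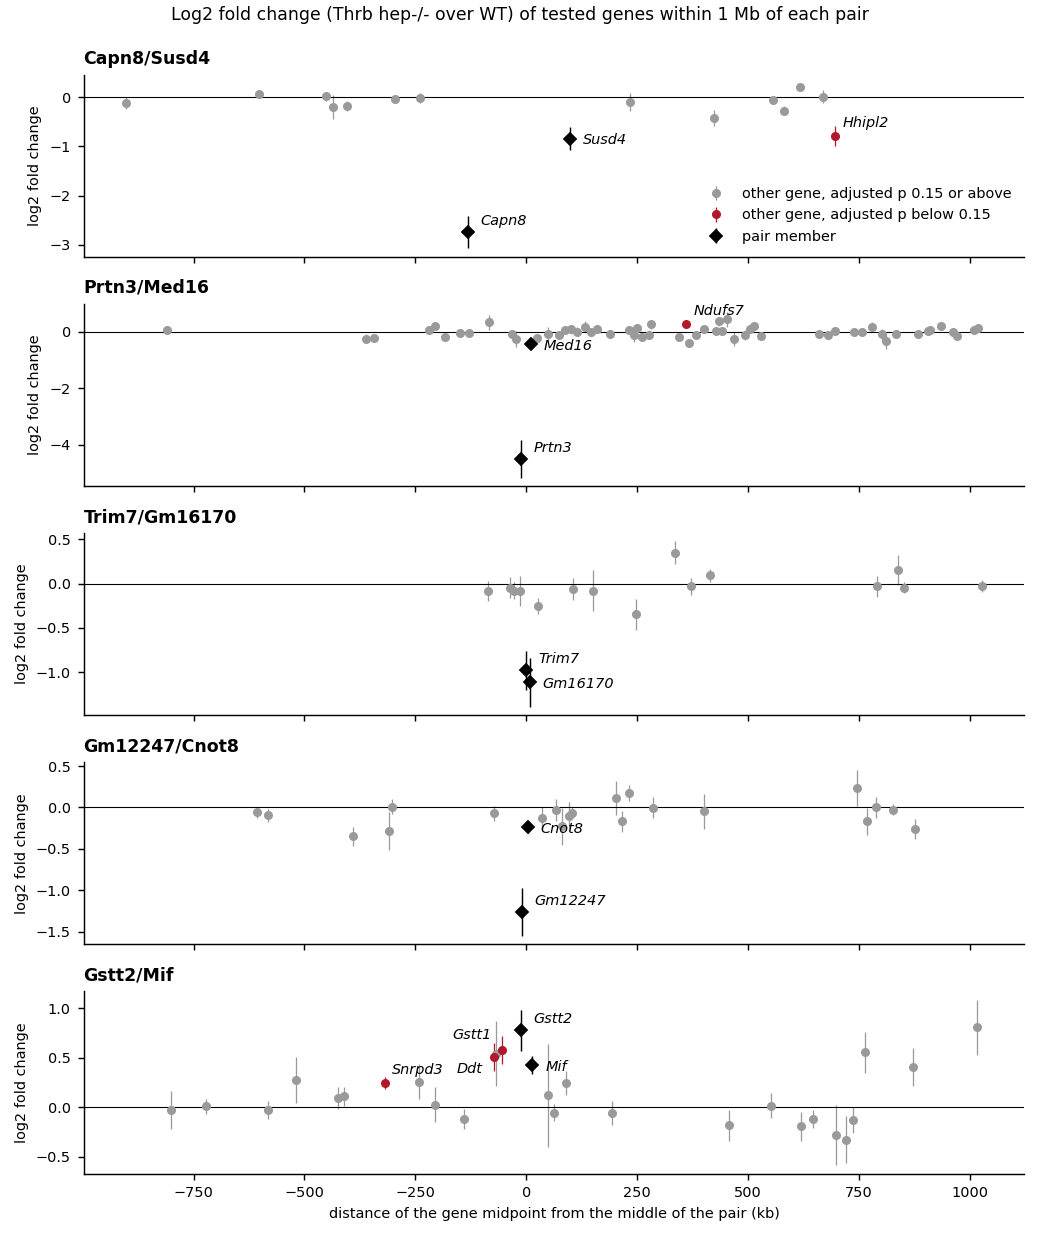
Log2 fold change with its standard error (vertical axis) of each tested gene within 1 Mb of a pair against the distance of its midpoint from the middle of the pair (horizontal axis, kb), with members as black diamonds and called genes in red. Beside the 4 lower pairs Hhipl2, which is lower, and Ndufs7, which is higher, are called, and beside Gstt2 and Mif the genes Gstt1, Ddt and Snrpd3 are, all higher.

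The stretches between pairs on the same chromosome were also counted. Between Mif and Prtn3, over 4.01 Mb, 0 of 49 tested genes were called by edgeR, with 7 at an unadjusted p below 0.05, 3 called by DESeq2 and 1 by limma-voom. Between Gm16170 and Gm12247, over 9.24 Mb, 2 of 77 were, Jade2 and Slc36a1, named after their values were seen, with 14 at an unadjusted p below 0.05, 7 called by DESeq2 and 8 by limma-voom, tools that called 885 and 849 of all 12234 genes. Around Thrb, on chromosome 14 and so on none of the members' chromosomes, 0 of 41 tested genes within 5 Mb were called by edgeR, with 1 at an unadjusted p below 0.05, 0 called by DESeq2 and 2 by limma-voom. Without the members, 4.59% of the tested genes of chromosome 1, 4.21% of chromosome 10 and 3.26% of chromosome 11 were called. Whether WT and Thrb hep-/- mice differed in segments of another strain's genome at these loci was not tested, since counts per gene hold no sequence.

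Mice of the same genotype also differed, and this variation was not used to select the pairs. After each genotype's mean was subtracted, Capn8 and Susd4 varied together over the 10 mice, with Pearson's r = 0.84 (exact permutation test within genotypes, two-sided, p = 0.0018, adjusted p = 0.0045 over 5 pairs) and Spearman's rho = 0.78 (exact p = 0.014, adjusted 0.036). Without the 2 mice farthest from the median of Capn8, WT and Thrb hep-/- replicate 3, r was 0.57. Leaving out the extremes of Capn8 narrows its range and by itself tends to lower r, so this cannot show how far the relation rests on those mice. Without WT replicate 3 alone r was 0.75, and without Thrb hep-/- replicate 3 alone 0.87. Trim7 and Gm16170 did so with r = 0.86 (exact permutation p = 0.0016, adjusted p = 0.0045) and rho = 0.87 (exact p = 0.0051, adjusted 0.025). Without the 2 farthest mice, WT replicates 4 and 5, r stayed at 0.86. These genes overlap and counting did not use the strand, so reads of 1 may have been counted for the other. For Prtn3 and Med16 r was 0.72 (exact permutation p = 0.050, adjusted p = 0.083), rho 0.65 (exact p = 0.090, adjusted 0.15) and r 0.52 without Thrb hep-/- replicates 1 and 4, and it missed the threshold of 0.05. The relation of Gm12247 and Cnot8, with r = 0.58 (exact permutation p = 0.14, adjusted p = 0.17) and rho = 0.41 (exact p = 0.33, adjusted 0.42), fell to 0.094 without Thrb hep-/- replicates 3 and 5. For Gstt2 and Mif r was -0.0095 and rho -0.042 (exact permutation p = 0.98 and 0.92, adjusted 0.98 and 0.92), with r = -0.32 without WT replicate 4 and Thrb hep-/- replicate 5. This value near 0 pools r = 0.64 among WT mice and r = -0.75 among Thrb hep-/- mice, and the difference between these was not tested. WT replicate 4 had the highest level of both genes among WT mice. Without that mouse alone, r over the remaining mice was -0.61, so the rise among WT mice rests largely on it.

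The 5 pairs had a median r of 0.72, against 0.090 over all 12206 neighbouring pairs of tested genes (middle 50% from -0.22 to 0.38) and 0.14 over the 40 pairs of members that are not partners. Some of the latter were as alike as partners, such as Susd4 and Med16 with r = 0.70. These medians are descriptions, since all values come from the same 10 mice. With the part of each value that followed the acute-phase mean subtracted as well, chosen after seeing the data, r was 0.80 for Capn8 and Susd4, 0.85 for Trim7 and Gm16170, 0.52 for Prtn3 and Med16, 0.62 for Gm12247 and Cnot8 and -0.077 for Gstt2 and Mif.

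**Figure D4:**
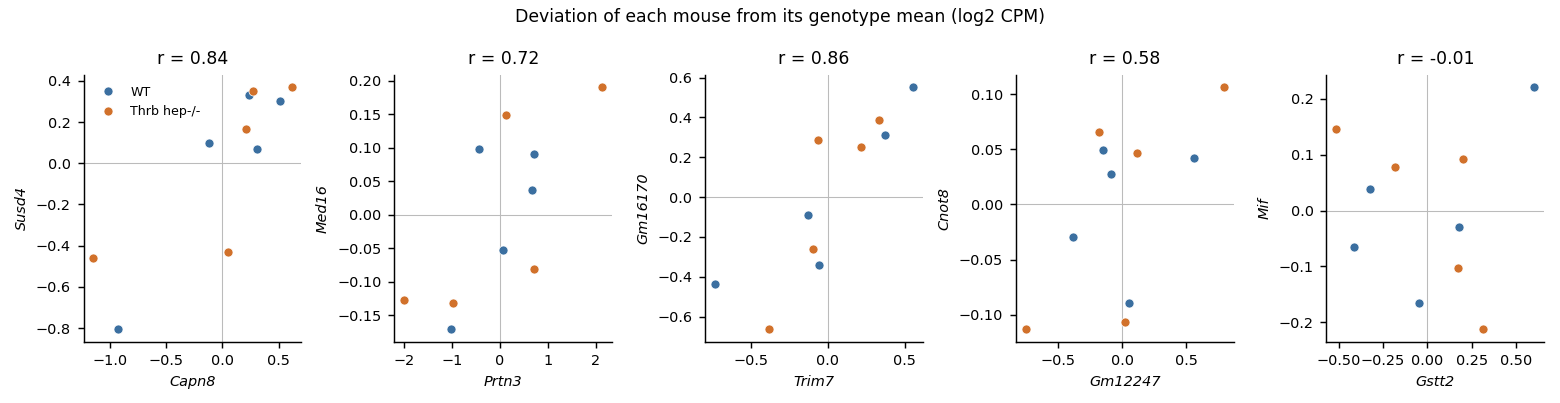
Deviation of each mouse from its genotype mean in log2 CPM for the first (horizontal axis) and second gene (vertical axis) of each pair, in WT (blue) and Thrb hep-/- (orange) mice. The points rise together for Capn8 and Susd4 and for Trim7 and Gm16170. For Gstt2 and Mif they fall among Thrb hep-/- mice, while the rise among WT mice rests largely on WT replicate 4.

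Likeness over the 10 mice includes the genotype difference on which the pairs were selected, so that a high likeness of partners, or with other genes that differed, is in part a result of that selection and is given as a description. By this measure each member had other genes whose log2 CPM was more like its own than that of its partner. Of all tested genes, Gm16170 was the 3rd most like Trim7 (r = 0.95) and Med16 the 23rd most like Prtn3 (r = 0.94), whereas Mif was only the 533rd most like Gstt2 (r = 0.64). The genes most like Prtn3 were Fgl1 (r = 0.98) and Lrg1 (r = 0.97), 2 plasma proteins of the acute phase, and those most like Med16 were Lrg1 (r = 0.97) and the lubricin gene Prg4 (r = 0.95). For Capn8 they were Moxd1 and the serum amyloid gene Saa4 (both r = 0.96), and for Susd4 the coagulation inhibitor gene Serpina10 (r = 0.98) and the metallothionein gene Mt1 (r = 0.96). Sult2a7 and Twf2 (both r = 0.95) were nearest to Trim7, and the interferon-induced Oasl1 (r = 0.97) and Dnhd1 (r = 0.95) to Gm16170. Qsox1 (r = 0.97) and Slc44a3 (r = 0.95) were nearest to Gm12247, and Ucp2 (r = 0.96) and the pattern receptor gene Tlr2 (r = 0.93) to Cnot8. Abi3bp and Rerg (both r = 0.95) were nearest to Gstt2. Letm1 (r = 0.96) and a gene without a symbol in the annotation, ENSMUSG00000118642 (r = 0.96), were nearest to Mif. Of the 20 most similar genes, none lay within 5 Mb for 8 members, 1 did for Gstt2 and 2 for Mif, Ndufs7 and Snrpd3. Only 57 to 156 other genes of the 12234 tested lie within 5 Mb of a pair. Any 20 genes would thus seldom include 1 of them, and nothing is read from the members with none.

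The members belong to a larger set of neighbouring genes called together. Of 12206 neighbouring pairs of tested genes, 50 (0.41%) had both genes past 0.15 in the same direction, 38 lower and 12 higher, and 5 in opposite directions. The members are 5 of these 50, and 84 of the 499 called genes stood in such a pair. Ranked by the smaller of the partners' absolute log2 fold changes, Trim7 and Gm16170 were 19th, Capn8 and Susd4 22nd, Prtn3 and Med16 37th, Gstt2 and Mif 40th and Gm12247 and Cnot8 last. The highest were Saa1 and Saa2, serum amyloid genes, at -5.03 and -6.06 and neighbours within the cluster of major urinary protein genes, such as Mup15 and Mup16 at -4.53 and -3.72. Those genes have near-identical copies, which makes their counts uncertain. Of the members, only Gm12247 was searched for such copies, and its count is uncertain too. The next pairs by that rank were also of the Mup cluster, namely Gm13775 with Mup-ps16, Mup19 with Gm13775, and Mup18 with Mup19, with smaller absolute values of 3.25, 3.25 and 3.23. Within 5 Mb of the members only Gstt1 and Gstt2 were added. At the edge of the threshold, Apon and Apof (larger adjusted p of 0.146) were inside, and Sdr9c7 and Hsd17b6 (0.155) outside, both named after their values were seen. The median gap was 13.7 kb in the 50 pairs and 19.4 kb in all neighbouring pairs, and 6 of the 50 shared exon bases.

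**Figure D5:**
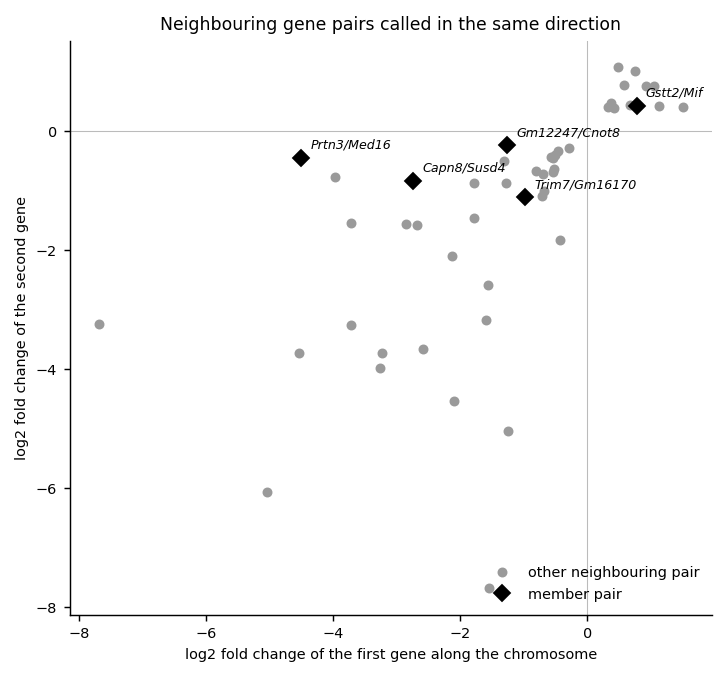
Log2 fold changes of the first (horizontal axis) and second gene (vertical axis) of the 50 neighbouring pairs called in the same direction, with the 5 member pairs as black diamonds. In 4 of the member pairs both genes are lower and in Gstt2 and Mif both are higher.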

How the data were processed

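Liver RNA of 5 WT and 5 Thrb hep-/- mice was analysed, 1 library each, grouped by the sample titles. The authors mapped stranded reads on mm10 with HISAT2 2.2.1 and counted them on Ensembl exons with HTSeq 0.9.1 (versions per the labels), in union mode without strand and without reads of several places or genes. The deposited values are raw counts per gene. A table of the authors' own edgeR comparison (fold changes, mean log2 CPM, F, p-values and adjusted p-values) was not used.

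A gene was tested if 5 or more libraries reached 1 CPM, with edgeR 4.0.16 in R 4.3.3 (TMM, robust quasi-likelihood F-test, Benjamini-Hochberg adjustment over 12234 genes, called below 0.15 after the study's methods). To obtain a standard error, the size of the log2 fold change was divided by the root of its F value. The fit was tested on simulated data with known changes. Normalized CPM use TMM-scaled totals, and log2 CPM a prior count of 2. A floor of 3 counts is 0.105 to 0.113 CPM, and covers counting error only. As nothing else is said of the mice, p-values measure only the spread between these samples. Positions, exon overlap and likeness of sequence come from GENCODE M21 on GRCm38 (BLAST+ 2.17.0), while the authors counted on another release, and 6 tested genes had no position. Upstream sequences come from RefSeq on GRCm38.p6.

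The members and gene lists were chosen with earlier results of these data known. Named genes are the members, Thrb, the nearest tested gene on each side of a pair and up to 3 called within 1 Mb, the 2 most similar genes of each member, up to 4 called genes of each list, and the 5 other neighbouring pairs with the largest changes or within 5 Mb. Alternatives were DESeq2 1.42.0, limma-voom (limma 3.58.1), other normalizations, filters and windows, the likelihood ratio test, the replicate number as a block and each mouse left out. A mean of 16 acute-phase genes as covariate was added after seeing the data.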

Additional observations from a re-analysis of the deposited data

Results flagged for a closer look

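Over 30 groups of 5 mice checked, the members and the called genes within 1 Mb of them in each genotype, 2 had 1 mouse far from the other 4, and chance gives about 1.5, as about 1 in 20 groups is marked by chance. Hhipl2 was at 2.08 normalized CPM in WT replicate 1, against 1.22 to 1.37 in the other WT mice. Ddt was at 34.1 normalized CPM in Thrb hep-/- replicate 2, against 21.8 to 23.5 in the other Thrb hep-/- mice. None of the 10 members had such a mouse in either genotype.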

How the results depend on the processing

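Each member kept its direction in all 19 alternatives, and 180 of the 180 member values other than those with the acute-phase covariate moved by less than the spread between mice. With DESeq2, limma-voom and the acute-phase covariate, the 499 called genes became 885, 849 and 8, the 5 called neighbours 9, 9 and 0, and the 50 neighbouring pairs 101, 95 and 1. The likelihood ratio test gave 81 pairs, and an adjusted p below 0.05 gave 18. Windows of 250 kb and 5 Mb gave 2 and 14 neighbours. The acute-phase covariate was chosen after seeing the data. Its correlation with genotype was -0.85, and a fit with it therefore also removes genotype difference. In that fit 0 of the 10 members were past the threshold, and log2 fold changes were -2.06 for Capn8, -0.0090 for Susd4, -2.22 for Prtn3, -0.21 for Med16, -0.71 for Trim7, -0.68 for Gm16170, -0.43 for Gm12247, -0.20 for Cnot8, 0.67 for Gstt2 and 0.17 for Mif, and r of Prtn3 and Med16 was 0.52. Why DESeq2, limma-voom and the likelihood ratio test called more was not looked into: the cause was not tested. Without the filter on low counts 7 of the 10 members were past the threshold, and with 1 mouse left out 5 to 10 of them. Both partners were past it in 2 of the 5 pairs without the filter, when Susd4, Cnot8 and Gstt2 were lost. With 1 mouse left out this held for 1 pair without WT replicate 5 or Thrb hep-/- replicate 3, and up to all 5 without Thrb hep-/- replicate 5. In every other fit with 1 mouse left out, the losses included Susd4, Cnot8 or Gstt2.

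With 1 mouse left out, called genes went from 229 to 684, neighbours from 0 to 9 and pairs from 20 to 75. The called genes were 256 without WT replicate 2, 284 without WT replicate 5 and 229 without Thrb hep-/- replicate 3, and the pairs 29, 27 and 20. Neighbours were 3, 2 and 9 without WT replicate 1, 2 and 4, and 0 without Thrb hep-/- replicate 3, when 5 of the 10 members were past the threshold. Correlations went from 0.75 to 0.93 for Capn8 and Susd4, 0.56 to 0.81 for Prtn3 and Med16 (past the threshold without Thrb hep-/- replicate 2, exact permutation adjusted p = 0.038, and 5, 0.029), 0.81 to 0.91 for Trim7 and Gm16170, 0.37 to 0.68 for Gm12247 and Cnot8 and -0.61 to 0.26 for Gstt2 and Mif, whose sign changed without WT replicate 3 (0.027) or 5 (0.0052) and Thrb hep-/- replicate 1 (0.044), 2 (0.23), 4 (0.031) or 5 (0.26).

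Same-numbered mice did not deviate together (correlations from -0.20 to 0.0091), so the numbers do not pair them. With the replicate block, 348 genes, 0 neighbours, 37 pairs and 8 of the 10 members were past 0.15, and r was 0.70 for Capn8 and Susd4, 0.60 for Trim7 and Gm16170, 0.74 for Gm12247 and Cnot8 and -0.19 for Gstt2 and Mif. Depth limits Prtn3 in Thrb hep-/- mice, Gm16170 and Gm12247, which rest on few reads.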

Other observations

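Among the genes that mark other liver cell types, the macrophage genes Clec4f, Adgre1, Cd68, Csf1r, Vsig4 and Marco had lower fitted levels in Thrb hep-/- livers in 6 of 6, with a median log2 fold change of -0.66 and summed CPM of 67.4 to 253.5 in WT and 80.8 to 150.0 in Thrb hep-/- mice. None was past 0.15 with edgeR, while 3 had an unadjusted p below 0.05 and 1 was called by DESeq2 and 0 by limma-voom. Stellate cell genes had higher fitted levels in 6 of 6, with a median of 0.26 and summed CPM of 79.9 to 125.1 in WT and 111.1 to 136.3 in Thrb hep-/- mice. Only 1, the intermediate filament gene Des, was called by edgeR (log2 fold change 0.67, standard error 0.15, adjusted p = 0.057). In this list 2 had an unadjusted p below 0.05, and 1 was called by DESeq2 and 1 by limma-voom. The least changed was Col3a1, at 0.12 (standard error 0.31, adjusted p = 0.92 with edgeR). The 5 endothelial genes had a median of -0.030 and the 3 tested cholangiocyte genes one of -0.42, with 0 called by edgeR and 2 at an unadjusted p below 0.05 in each list, and 2 endothelial and 0 cholangiocyte genes called by DESeq2 and by limma-voom. None of the 6 lymphocyte genes passed the filter. How these cell types bear on the member genes was not tested.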
